A study of Homo sapiens with 6 samples.

Results

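The BCL2 family of apoptosis genes was followed in RL95-2, an established cell line from a human endometrial carcinoma, cultured with or without medium conditioned by fat cells. The 10 members were chosen by gene symbol and comprised the pro-survival genes BCL2, BCL2L1 and MCL1 and 7 pro-death genes, namely the BH3-only genes BCL2L11, BBC3, PMAIP1, BID and BIK and the effectors BAX and BAK1. All 10 were among the 23228 genes of the count tables, and all 10 were expressed highly enough to be tested, together with 12663 genes in total. Cells grown in RPMI with 10% FBS were kept for 24 h in serum-free RPMI mixed in equal parts with plain DMEM (Control, 3 libraries) or with ADP-CM, the medium in which mature adipocytes from human visceral fat had been cultured (3 libraries). All libraries came from the same cell line, and the labels do not say whether the 3 samples of a group were separate cultures, so the p-values measure only the spread between these samples. The question addressed is whether ADP-CM shifted pro-survival against pro-death transcripts.

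BCL2 family proteins decide whether the outer mitochondrial membrane stays intact. BAX and BAK1 form pores through which cytochrome c leaves the mitochondria, pro-survival proteins hold BAX and BAK1 in check, and BH3-only proteins bind the pro-survival proteins or activate the effectors directly. BCL2L1 and MCL1 are known targets of STAT3. Much of the control of these proteins takes place after transcription, which RNA counts do not show. Counts per gene also pool its splice forms, with 15 annotated transcripts for BCL2L1 and 8 for MCL1, and do not tell them apart.

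The members share the BH3 core, the short helix through which pro-death members dock into the groove of pro-survival members. In the coding sequence of the canonical GENCODE transcript, each of the 10 members held exactly 1 place where a leucine codon was followed 4 codons later by a glycine or alanine codon and an aspartate codon. Such a place occurred in 4846 of 19860 canonical coding sequences (24.4%), so the pattern alone does not mark the family. The 27 coding bases from that leucine codon are shown because they are the feature that pro-survival and pro-death members have in common, with the leucine codon and the glycine or alanine and aspartate codons in capitals. Positions are on GRCh37, and each stretch lies within a single exon.
BCL2 (chr18:60985585-60985611, minus strand): CTCcgccaggccGGCGACgacttctcc
BCL2L1 (chr20:30309728-30309754, minus strand): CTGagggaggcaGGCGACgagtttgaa
MCL1 (chr1:150551344-150551370, minus strand): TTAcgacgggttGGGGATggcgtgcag
BCL2L11 (chr2:111907680-111907706, plus strand): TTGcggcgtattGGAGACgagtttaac
BBC3 (chr19:47729839-47729865, minus strand): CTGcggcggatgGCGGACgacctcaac
PMAIP1 (chr18:57569905-57569931, plus strand): CTCaggagatttGGAGACaaactgaac
BID (chr22:18222184-18222210, minus strand): CTCgcccaggtcGGGGACagcatggac
BIK (chr22:43523722-43523748, plus strand): CTGgcctgcatcGGGGACgagatggac
BAX (chr19:49459044-49459070, plus strand): CTCaagcgcatcGGGGACgaactggac
BAK1 (chr6:33543167-33543193, minus strand): CTCgccatcatcGGGGACgacatcaac
BBC3 was the only member with an alanine codon in place of glycine. The core began at codon 29 of 54 in PMAIP1, the shortest coding sequence, and at codon 213 of 350 in MCL1, the longest.

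Of the 10 members, 2 passed an adjusted p-value of 0.01 (edgeR, quasi-likelihood test, Benjamini-Hochberg over all tested genes, as for all p-values unless DESeq2 is named), and both were lower with ADP-CM. These were the pro-survival gene BCL2L1 and the pro-death gene BBC3. Of all tested genes 26.5% passed this limit (13.0% lowered and 13.5% raised), so 2 of 10 is a share near the background. No member was raised (0 by edgeR at an unadjusted p under 0.05 as well, and 0 with DESeq2). No member passed the study's limits of the same adjusted p-value and a fold change over 1.5, which 2.27% of the tested genes did. The median log2 fold change was -0.05 over the 10 members and -0.00231 over all tested genes. Among the 3 pro-survival members 1 was lowered and 2 were not past the limit, and among the 7 pro-death members 1 was lowered and 6 were not.

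**Figure D1:**
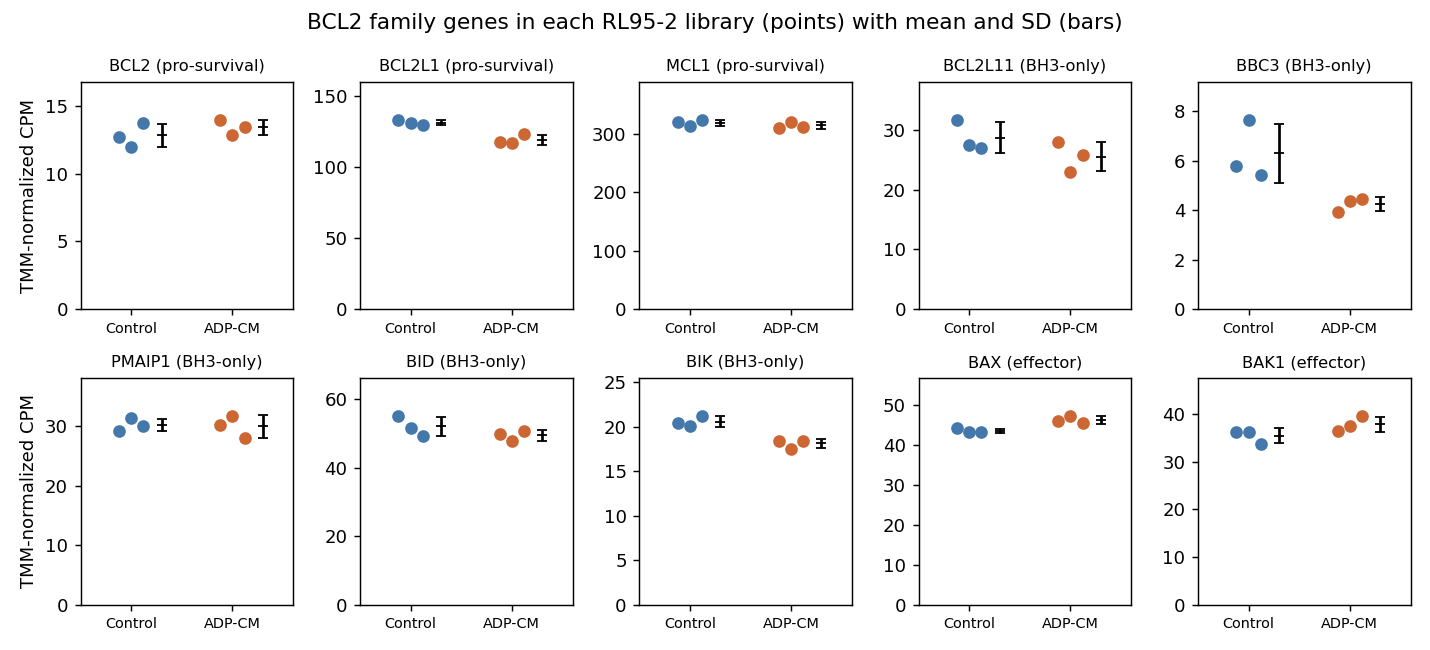
TMM-normalized CPM (vertical axes, each from 0) of the 10 members in the 3 Control and 3 ADP-CM libraries, with each library as a point and the mean with its SD as a bar. BCL2L1, BBC3 and BIK sit lower in every ADP-CM library than in any Control library, while MCL1, BCL2, PMAIP1, BCL2L11 and BID overlap between the groups.

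BCL2L1 encodes BCL-xL, a pro-survival protein of the mitochondrial membrane. Its CPM (read counts scaled to the TMM-corrected library size) in the Control libraries was 133.1, 131.2 and 129.4, against 117.6, 116.9 and 123.2 with ADP-CM. All 3 ADP-CM libraries lay below all 3 Control libraries. The mean fell from 131.2 ± 1.86 to 119.2 ± 3.47 CPM (SD, n = 3 each). On the log2 scale the fold change was -0.14 ± 0.031 (SE), and edgeR's adjusted p-value was 0.00026. The fall is small, since the 95% interval ran from 0.870-fold to 0.949-fold. It stayed past the limit in all 12 alternatives tried, with adjusted p-values from edgeR or DESeq2 of at most 0.00469. The gene lies on chromosome 20 (30252255 to 30311792), and 41.3% of its exonic bases lie opposite the antisense gene ABALON. The strand setting of the counting is not given in the sources used here, so reads of ABALON could be part of this count.

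MCL1 is a short-lived pro-survival protein and was the most abundant transcript of the family. It had 320.8, 313.5 and 323.6 CPM in Control and 310.9, 320.7 and 311.7 CPM in ADP-CM, and the groups overlapped. Its log2 fold change was -0.02 ± 0.023 (SE; edgeR adjusted p-value 0.486), and the 95% interval of the fold, 0.954 to 1.017, spans a few percent on either side. BCL2, the founding member of the family, was scarce, with 203 to 235 reads in the Control and 236 to 253 reads in the ADP-CM libraries. That corresponds to 12.8 ± 0.863 and 13.4 ± 0.554 CPM (SD, n = 3 each). Its interval was wider, from 0.932-fold to 1.17-fold.

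BBC3 encodes PUMA, a BH3-only protein that binds every major pro-survival member. It had 94, 129 and 93 reads in Control and, in the deeper ADP-CM libraries, 71, 80 and 82 reads. On the CPM scale this was 5.79, 7.64 and 5.44 in Control and 3.92, 4.36 and 4.46 in ADP-CM, without overlap between the groups. Control replicate 2 stood above the other Control libraries. The mean fell from 6.29 ± 1.18 to 4.25 ± 0.286 CPM (SD, n = 3 each). Its log2 fold change of -0.57 ± 0.139 (SE) had an edgeR adjusted p-value of 0.000792. This was the largest change among the 10 members, and its fold of 0.676 lay just short of the 1.5-fold limit, which it passed when Control replicate 1, Control replicate 3, ADP-CM replicate 2 or ADP-CM replicate 3 was left out. The call rested on few reads. Without Control replicate 2 the log2 fold change was -0.40 and the adjusted p-value from edgeR rose to 0.0398, and with all libraries DESeq2 gave 0.0189, both short of the limit of 0.01. The gene lies on chromosome 19 (47724079 to 47736023).

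The other 4 BH3-only genes were not past the limit. BCL2L11 encodes BIM, which binds all pro-survival members and can activate BAX and BAK1. It had 31.7, 27.5 and 27.1 CPM in Control and 27.9, 23.0 and 25.8 CPM in ADP-CM, and the groups overlapped. Its log2 fold change was -0.17 ± 0.064 (SE; edgeR adjusted p-value 0.0332). Single libraries moved this value, to -0.09 without Control replicate 1 and -0.10 without ADP-CM replicate 2, and without ADP-CM replicate 1 it was -0.24 and passed the limit (adjusted p-value 0.00748, edgeR). In the annotation 10.8% of its exonic bases lie opposite another gene.
BIK, a BH3-only protein of the endoplasmic reticulum, had 20.4, 20.1 and 21.2 CPM in Control and 18.4, 17.6 and 18.4 CPM in ADP-CM. Its groups did not overlap, but its log2 fold change of -0.18 ± 0.067 (SE) was short of the limit (edgeR adjusted p-value 0.0272). At a looser adjusted p-value of 0.05, which 36.7% of the tested genes passed, BCL2L11 and BIK joined BCL2L1 and BBC3, which made 4 members, all lower in ADP-CM. BID, which links death receptors to the mitochondria once caspase-8 has cut it, had a log2 fold change of -0.07 (edgeR adjusted p-value 0.209). PMAIP1 encodes NOXA, which mainly opposes MCL1. It was nearly level, with Control and ADP-CM means of 30.2 ± 1.07 and 30.0 ± 1.91 CPM (SD, n = 3 each), and its 95% interval ran from 0.916-fold to 1.073-fold.

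The effectors BAX and BAK1 had values on the other side of 0 and did not pass the limit either. BAX had 44.3, 43.2 and 43.2 CPM in Control and 46.0, 47.3 and 45.6 CPM in ADP-CM. BAK1 had 36.3, 36.3 and 33.6 CPM in Control and 36.5, 37.5 and 39.6 CPM in ADP-CM. For both genes every ADP-CM library lay above every Control library, for BAK1 by a narrow margin. The log2 fold changes were 0.09 ± 0.047 and 0.10 ± 0.052 (SE; edgeR adjusted p-values 0.132 and 0.143). In all, 5 of the 10 members (BCL2L1, BBC3, BIK, BAX and BAK1) had groups without overlap, against 45.5% of all tested genes.

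**Figure D2:**
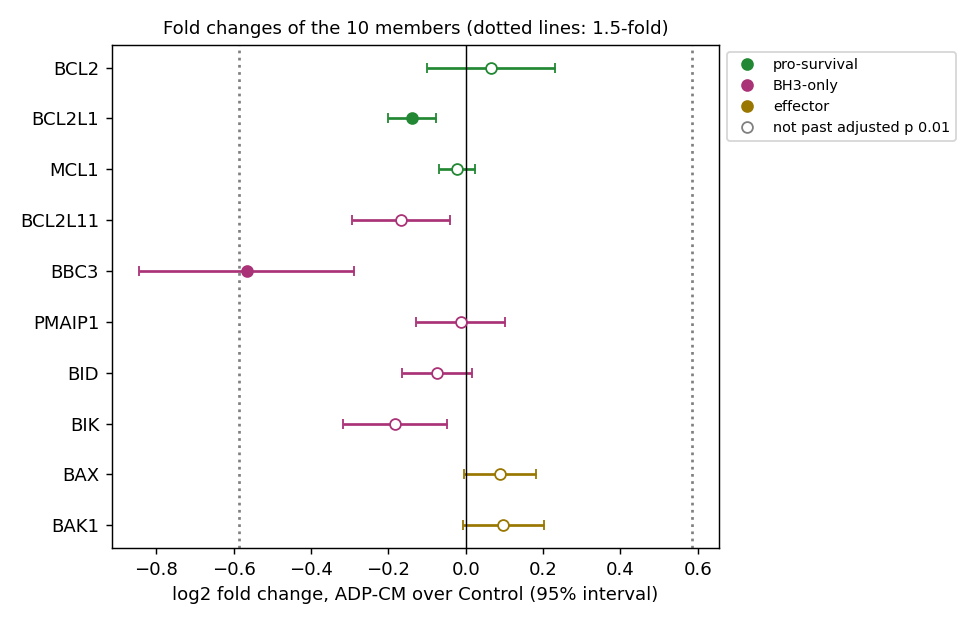
Log2 fold change of ADP-CM over Control (horizontal axis) for the 10 members, with 95% intervals from edgeR, colours for the roles and open circles for members not past an adjusted p-value of 0.01. The intervals of BCL2L1, BBC3, BCL2L11 and BIK lie below 0, and only the interval of BBC3 reaches the dotted line of a 1.5-fold change.

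Levels of different genes were compared as CPM per kilobase of merged exons. These lengths came from GENCODE, whereas reads were counted on RefSeq genes, so the lengths may not match the exons counted. In Control the order was MCL1 (51.3), BCL2L1 (31.3), BIK (21.6), BAX (16.8), BAK1 (16.0), PMAIP1 (13.8), BID (11.8), BCL2L11 (4.26), BBC3 (1.98) and BCL2 (1.02), as means of 3 libraries in CPM per kilobase. Each gene's Control libraries lay above those of the next gene in the order. In ADP-CM the same order held in the means, but BAX (17.9 ± 0.356) and BAK1 (17.1 ± 0.718, SD, n = 3 each) overlapped and did not differ beyond their spread. Among the 3 pro-survival members MCL1 and BCL2L1 stood far above BCL2, which was the scarcest member of all 10. The order in the middle depends on the exon model, since with the longest annotated transcript as length BAX stood above BIK and BID above BAK1.

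**Figure D3:**
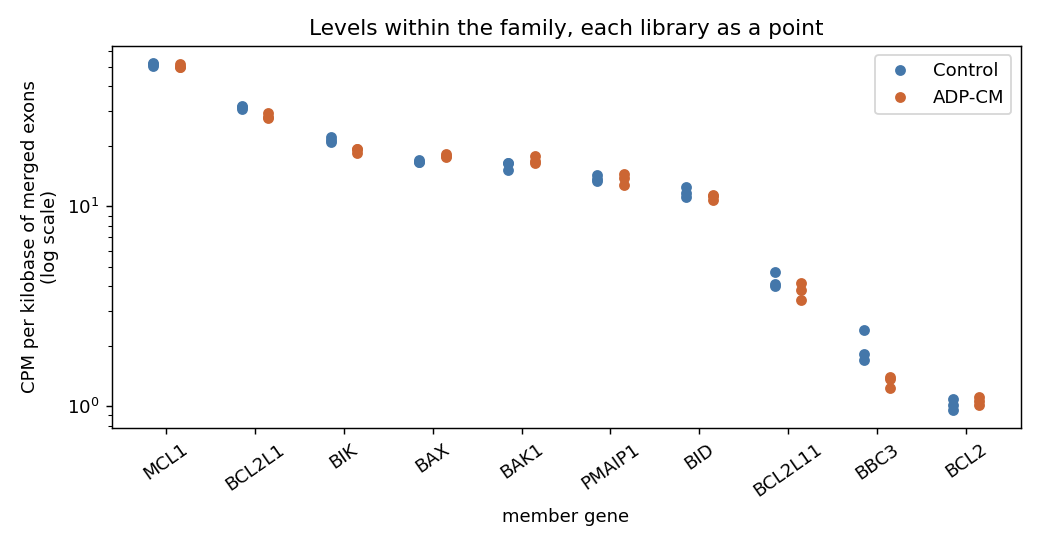
CPM per kilobase of merged exons (vertical log axis) for each member in order of its Control mean, with every library as a point. MCL1 at 51.3 and BCL2 at 1.02 mark the ends of the range in Control, and BBC3 shows the widest gap between the groups.

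Summed by role on the per-kilobase scale, the 3 pro-survival genes held 84.3, 82.6 and 83.9 CPM per kilobase in Control, against 79.1, 80.4 and 80.5 with ADP-CM. The 5 BH3-only genes held 53.8, 53.6 and 52.9 in Control and 49.9, 48.6 and 48.8 in ADP-CM. The effectors held 33.5, 33.1 and 31.9 in Control and 34.3, 35.3 and 35.5 in ADP-CM. Control and ADP-CM were apart in each of these sums, which were lower for the pro-survival and the BH3-only genes and higher for the effectors. The pro-death sum held 87.4, 86.7 and 84.9 in Control and 84.2, 83.8 and 84.3 in ADP-CM. Both it and the pro-survival sum were thus lower with ADP-CM, the pro-death sum by a narrow margin. With the longest annotated transcript as length, the groups of the pro-death sum overlapped. The ratio of summed pro-survival to summed pro-death genes was nearly level, at 0.969 ± 0.0186 for Control against 0.951 ± 0.0105 for ADP-CM (SD, n = 3 each), and its groups overlapped. These sums are descriptions without a test.

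Ratios of reads within a library do not depend on how libraries are scaled, so pairs of members were also set against each other directly. The reads of BCL2L1 over those of BAX were 3.01, 3.04 and 2.99 in Control, against 2.56, 2.47 and 2.70 with ADP-CM. BCL2L1 over BAK1 was 3.67, 3.62 and 3.85 in Control and 3.23, 3.11 and 3.11 in ADP-CM. Both ratios were lower in every ADP-CM library, at 0.855 and 0.850 of their Control means. MCL1 over BAK1 was 9.03 ± 0.523 for Control and 8.32 ± 0.382 for ADP-CM (SD, n = 3 each), a smaller gap with hardly any distance between the groups. MCL1 over PMAIP1, the pair of a pro-survival protein and a BH3-only protein that mainly opposes it, was 10.6 ± 0.518 and 10.5 ± 0.561 (SD, n = 3 each) and overlapped. BCL2L1 over BCL2L11 overlapped too, with means of 4.58 ± 0.333 and 4.69 ± 0.443 (SD, n = 3 each). BCL2L1 over BBC3 went the other way and was 21.3 ± 3.60 for Control and 28.1 ± 1.66 for ADP-CM (SD, n = 3 each). MCL1 over BBC3 had the widest shift of these ratios, from 52.0 ± 9.69 to 74.2 ± 4.71 (SD, n = 3 each), and its groups did not overlap. These pairs are some of those possible, and their ratios are descriptions without a test. Among them no single direction was seen, as BCL2L1 and MCL1 were lower relative to BAK1 and higher relative to BBC3. The ratios over BBC3 rest on its few reads, and its call was lost without Control replicate 2 and with DESeq2.

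**Figure D4:**
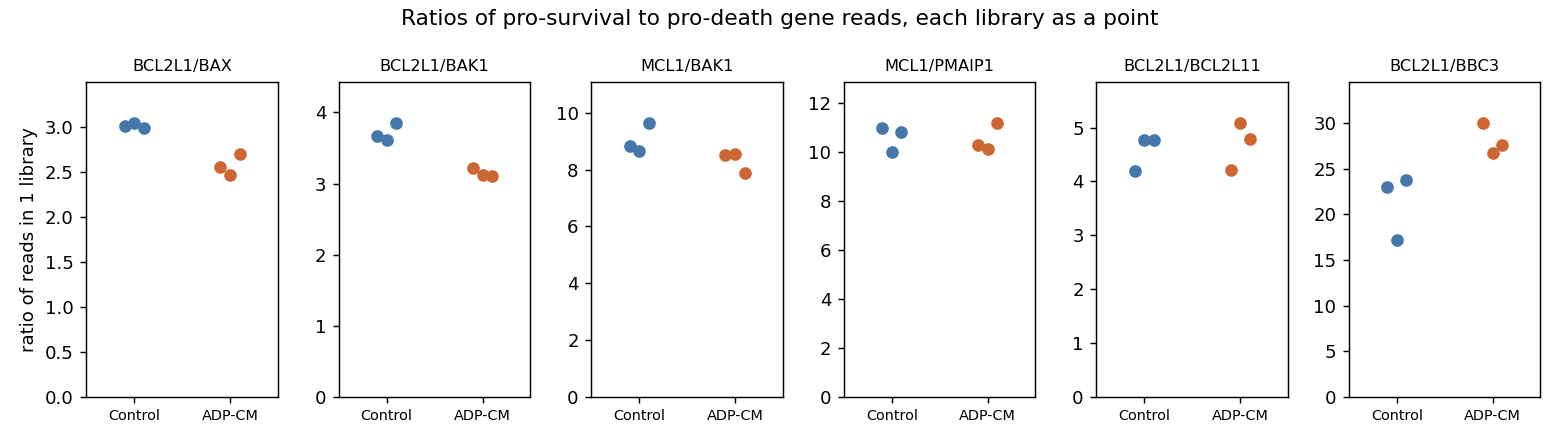
Ratio of reads of a pro-survival gene to reads of a pro-death gene within the same library (vertical axes, each from 0), with every Control and ADP-CM library as a point. BCL2L1/BAX and BCL2L1/BAK1 are lower in all ADP-CM libraries, BCL2L1/BBC3 is higher, and MCL1/PMAIP1 and BCL2L1/BCL2L11 overlap.

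The called member with the smallest p-value was BCL2L1. Over the 6 libraries, the genes outside the family whose log2 CPM, centred on each gene, differed least from it were TSPYL1, C12orf49 and ING1, with mean absolute differences of 0.00941, 0.00959 and 0.0099 on the log2 scale.

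Windows of 250 bases before each RefSeq start site were searched on both strands for letter patterns, 2 of which are given here, and windows of 8 members were at hand, those of MCL1 and BIK not being used. The STAT pattern TTCNNNGAA, present in 6.57% of all 35116 windows, was in no window of the members. The E-box CACGTG, which MYC and other factors bind, occurred in 6.34% of all windows. It was found in windows of BBC3, BAX and BID, for BID as the same site in 2 overlapping windows of 5. BAX held 4 copies, 138, 93, 45 and 14 bases before the start. These percentages count windows and not genes, and a gene with several windows has more chances of a match. The parts of these windows that lie upstream of the annotated gene are shown for the lowered members and for BAX, with E-boxes in capitals, on GRCh37 with the strand of the gene.
BCL2L1 (chr20:30311793-30312016, minus strand): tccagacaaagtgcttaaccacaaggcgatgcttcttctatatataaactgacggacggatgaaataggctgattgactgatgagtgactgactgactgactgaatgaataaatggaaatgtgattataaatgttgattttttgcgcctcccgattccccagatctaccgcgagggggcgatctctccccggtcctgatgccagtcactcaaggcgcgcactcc
BBC3 (chr19:47736024-47736174, minus strand): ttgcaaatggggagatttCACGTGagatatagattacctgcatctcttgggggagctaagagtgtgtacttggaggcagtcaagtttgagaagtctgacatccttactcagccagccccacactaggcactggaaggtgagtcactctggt
BAX (chr19:49457882-49458071, plus strand): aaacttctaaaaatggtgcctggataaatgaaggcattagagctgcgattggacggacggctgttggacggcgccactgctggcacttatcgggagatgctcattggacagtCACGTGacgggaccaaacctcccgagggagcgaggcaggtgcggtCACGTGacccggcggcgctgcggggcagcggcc
The BAX stretch holds 2 of its 4 E-boxes. A match or its absence describes these letters only and says nothing of binding.

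The other genes of the family were read from the same fit. Of 12 further BCL2 family genes 9 were tested, 1 was raised, and none was lowered (0 by DESeq2, 3 by edgeR at an unadjusted p under 0.05). The raised gene was BCL2L2, which encodes the pro-survival protein BCL-w. It rose from 41.2 ± 1.09 to 47.5 ± 1.76 CPM (SD, n = 3 each) and by 0.20 on the log2 scale. Its adjusted p-value was 0.000476 with edgeR and 0.0115, past the limit no longer, with DESeq2. It shares 16.8% of its exonic bases with the readthrough gene BCL2L2-PABPN1 on its strand, so its count is uncertain. BMF, another BH3-only gene and named after its values were seen, had the lowest log2 fold change of these genes, -0.83, with at most 16 reads in any library, and was not past the limit (edgeR adjusted p-value 0.059). BCL2L10 and BCL2L14 had 0 reads in all 6 libraries, which allows up to 3 reads in each. BCL2A1 had at most 2 reads in any library, so this NF-kB-responsive survival gene was not detectable at this depth.

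The counts that follow can be read against the 26.5% of all tested genes that passed the limit. Of the 9 genes for mitochondrial release and the apoptosome 1 passed the limit, VDAC1, a channel of the outer mitochondrial membrane, with a log2 fold change of 0.11 (edgeR adjusted p-value 0.000123). None of the 5 tested caspases passed in either direction (0 raised and 2 lower by edgeR at an unadjusted p under 0.05, and 0 with DESeq2). Of the 5 tested inhibitors of apoptosis 3 passed the limit, in both directions. BIRC3 and BIRC6 rose, with log2 fold changes of 0.22 and 0.17, and BIRC2, the neighbour and close relative of BIRC3, fell by 0.19 on the log2 scale. All 3 stayed past the limit in every alternative, while XIAP and BIRC5 were not past it. In the death receptor arm 1 of 8 genes was raised, TNFRSF10B, a receptor for TRAIL, with a log2 fold change of 0.18.

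Among the transcription factors, TP73 fell. TP73 encodes p73, which can switch on BBC3, and it had 135, 128 and 154 reads in Control and 65, 79 and 73 in ADP-CM. Its mean fell from 8.30 ± 0.713 to 3.96 ± 0.359 CPM (SD, n = 3 each), with log2 fold change -1.07 and edgeR adjusted p-value 2.84e-10. Every ADP-CM library lay far below every Control library. In the annotation 9.35% of its exonic bases lie opposite TP73-AS1. Of 14 tested transcription factors of the family's genes 3 were raised, with MYC, SNAI2 and ATF4 at log2 fold changes of 0.32, 0.24 and 0.17, and TP73 was the 1 lowered gene. STAT3 RNA was not past the limit, and it does not measure the phosphorylation of STAT3 that the study followed by Western blotting.
Of the 5 genes for turnover of MCL1 and BIM protein, the ubiquitin ligases HUWE1 and MARCH5 were raised slightly, with log2 fold changes of 0.08 and 0.13. These calls were lost when some single libraries were left out, and that of MARCH5 also with DESeq2 on all libraries (adjusted p-value 0.0583).

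**Figure D5:**
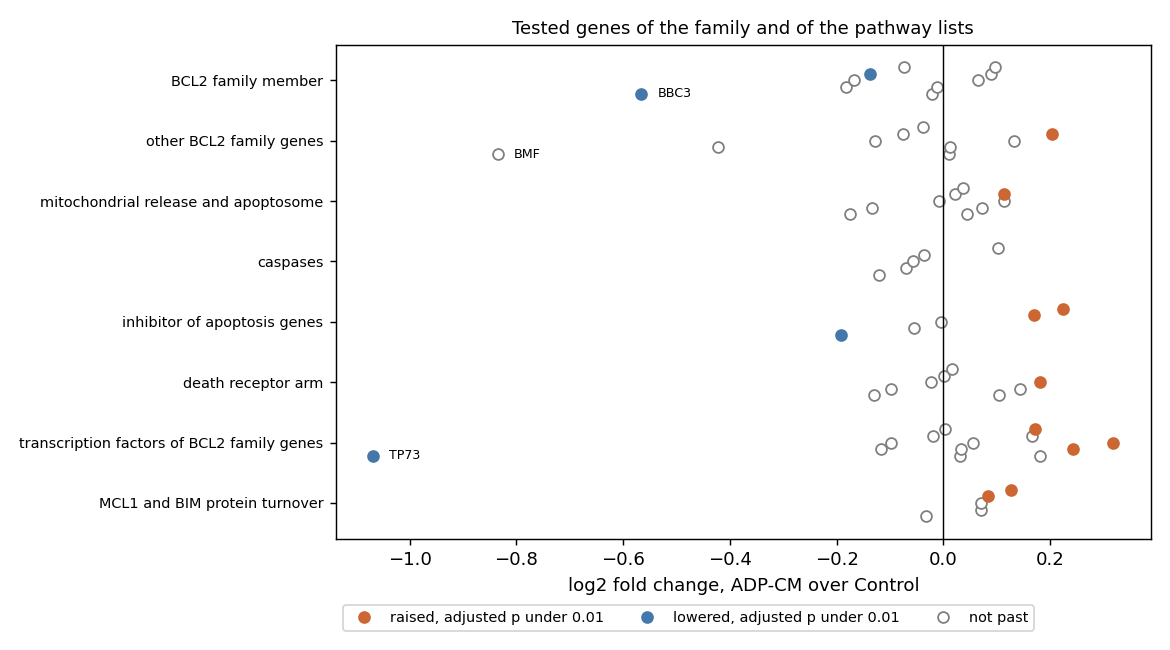
Log2 fold change of ADP-CM over Control (horizontal axis) for tested genes of the family and of 7 pathway lists (rows), filled where an adjusted p-value of 0.01 was passed. Most points lie near 0, and TP73 and BBC3 are the called genes farthest to the left among those shown.

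The 6 libraries held 16262614 to 18363033 reads on genes, more in every ADP-CM than in any Control library, and the share of all counted reads on no gene was 10.2% to 10.3% in Control and 11.5% to 11.6% in ADP-CM. The epithelial markers EPCAM, CDH1, KRT8, KRT18 and KRT19 were well expressed, but 4 of the 5 (all but EPCAM) were lowered, and their summed level was 3936 to 4005 CPM in Control and 3265 to 3305 CPM in ADP-CM. Adipocyte markers were near 0, with ADIPOQ and LEP at 0 reads and a sum over 7 markers of 0.526 to 0.948 CPM in Control and 0.763 to 1.03 CPM in ADP-CM. The 6 stromal markers summed to 59.1 to 66.5 and 76.2 to 77.8 CPM, almost all from COL1A1 and with THY1 at 0. The 5 leukocyte markers summed to 6.96 to 8.17 and 9.82 to 11.9 CPM, mostly CD68, with PTPRC at no more than 1 read, and the 3 endothelial markers to 60.7 to 66.4 and 54.5 to 61.6 CPM, mostly CDH5. The part of these differences in the results for the family was not tested. In such bulk RNA, fewer cells with a transcript and less transcript per cell cannot be told apart.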

How the data were processed

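Total RNA of 6 RL95-2 samples was sequenced as stranded poly(A) libraries with 50 bp single reads. Per the labels and the study's methods, the authors aligned reads to hg19 with TopHat2 and deposited raw HTSeq counts per RefSeq gene, without normalization. Program versions and the strand setting are not given in the sources used here. HTSeq's summary lines, 31.4% to 33.0% of all counted reads, name no gene and were left out. Replicates of a group all differed beyond sampling noise in a chi-square test of their counts, and each was kept.

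Counts were compared in R 4.3.3 with edgeR 4.0.16 (TMM, filterByExpr, quasi-likelihood test, Benjamini-Hochberg over 12663 genes), after tests on simulated data. A gene was called raised or lowered at an adjusted p-value under 0.01. Standard errors are the fold change over the root of F, and 95% intervals use the moderated degrees of freedom. The common biological coefficient of variation was 1.67%. CPM values use the TMM-scaled library sizes. Reads carry no molecular identifiers, so limits from counts cover counting error only.

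Alternatives were DESeq2 1.42.0, other scalings, other filters, a replicate block, an adjusted p-value of 0.05, another gene length and each library left out. All 10 members are named, and of each list reported here up to 3 raised and 3 lowered genes by p-value. The members and lists were chosen with earlier results of these data known. Gene positions, lengths, overlaps and coding sequences came from GENCODE release 44 on GRCh37, where MARCH5 is listed as MARCHF5. Promoter windows came from RefSeq (GRCh38.p14) and were located on GRCh37 by exact match. Protein sequences were not used here, and some genes and lists are not reported here.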

Additional observations from a re-analysis of the deposited data

How the results depend on the processing

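The log2 fold changes of the 10 members were recomputed under 12 alternatives each. Of these 120 values, 115 kept their direction and their side of an adjusted p-value of 0.01. With DESeq2, 1 member was lowered (BCL2L1), since BBC3 (log2 fold change -0.57) had an adjusted p-value of 0.0189, and DESeq2 called 1027 genes raised and 951 lowered among all genes, where edgeR called 1707 and 1650. At an adjusted p-value of 0.05, 4 members were lowered. With each library left out in turn, 1 to 3 members were lowered, 0 to 1 passed the 1.5-fold limit as well (BBC3), and the log2 fold change ran from -0.66 to -0.40 for BBC3, from -0.24 to -0.094 for BCL2L11 and from -0.058 to 0.035 for PMAIP1, which changed sign without Control replicate 2 (0.015) or ADP-CM replicate 3 (0.035) and was never past the limit. The causes were not tested. With the longest annotated transcript as length, the Control levels in CPM per kilobase became 70.2 for MCL1, 40.3 for BCL2L1, 32.1 for BAX, 20.9 for BID, 15.9 for PMAIP1, 5.56 for BCL2L11, 3.41 for BBC3 and 1.72 for BCL2, since that length is shorter than the merged exons. Libraries with the same replicate number deviated together only weakly, with correlations of 0.073, 0.014 and 0.097. Pairs with different numbers ran from -0.093 to 0.026, the latter between ADP-CM replicate 2 and Control replicate 1. Whether the number marks a pairing was not tested. With the replicate block, BCL2L1 had a log2 fold change of -0.14 and BBC3 -0.56, and the block changed no call among the members. Of the named genes of the lists, BCL2L2, HUWE1 and MARCH5 lost their call in 8 of the refits together. With 71 to 129 reads a library, BBC3 is the member whose change the depth limits most.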
